A study of Mus musculus with 2 samples.

Results

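Heat shock proteins and chaperones were taken as the protein-coding genes of the mm10 gene tables whose symbol starts with Dnaja, Dnajb, Dnajc, Hspa, Hspb, Hspd, Hspe, Hsph or Hsp90, or is Tcp1 or Cct2 to Cct8, with pseudogenes left out. The rule found 83 members among 43346 gene rows, of which 21474 are protein-coding. By subfamily these are 11 Hsp70 genes, 3 Hsp110 genes, 3 Hsp90 genes, 4, 13 and 28 J-proteins of classes A, B and C, the Hspd1 and Hspe1 pair, 9 genes of the Cct chaperonin, 8 small heat shock proteins, and 2 partner proteins that carry the Hspb prefix (Hspbp1 and Hspbap1). GENCODE M21, the annotation used for names, calls 82 of them protein-coding. It lists Cct6a as a processed transcript, and RefSeq lists it as protein-coding. Hspa14 was found through its transcripts, because its row in the tables also holds transcripts of the overlapping model Gm45902.

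The libraries come from liver of C57BL/6J mouse embryos at 14.5 days, pooled from male and female littermates, with no treatment or engineered allele named in the labels. There is 1 group with biological replicates 1 and 2, so the only comparison the design allows is of these libraries with each other, and a p-value here speaks of the libraries and not of a condition. Stranded paired-end libraries were made from polyadenylated RNA, and 102720920 and 65640933 expected counts (estimated read counts per gene, which need not be whole) fell on genes in replicates 1 and 2. Globin mRNA took 49.9% and 58.4% of the TPM of genes (a level per length of transcript). All 10 hepatocyte markers and all 10 erythroid markers were at 1 TPM or more in both libraries, and none of them differed beyond the threshold used below. In contrast, all 10 nerve cell markers were higher in replicate 2, with a sum of 1.84 TPM in replicate 1 and 6.60 TPM in replicate 2. Of these, 9 were higher beyond that threshold, as were 3.59% of all genes tested. In bulk tissue, fewer cells of a type and less RNA per cell cannot be told apart.

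Molecular chaperones bind unfolded stretches of other proteins and release them, usually in cycles driven by ATP. Hsp70 proteins are recruited to clients by J-proteins (the Dnaj genes) and are reset by nucleotide exchange factors such as the Hsp110 proteins, while Hsp90 acts later on signalling proteins with the help of co-chaperones. The chaperonins are hollow cages: Hspd1 with its lid Hspe1 in mitochondria, and the Cct ring, which folds actin and tubulin, in the cytosol. The transcription factor Hsf1 switches on the inducible members after heat or proteotoxic stress, and a separate set of members in the endoplasmic reticulum (ER) answers to unfolded secretory protein. Fetal liver is at this age both a secretory organ and the main site of red cell formation.

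Chaperone mRNA was abundant and dominated by constitutive members. The median member was at 10.9 TPM in replicate 1 and 6.74 TPM in replicate 2 (8.82 ± 2.93, SD, n = 2), against 1.17 and 1.00 TPM for all protein-coding genes. In both libraries 66 of 83 members (79.5%) were at 1 TPM or more, against 49.5% of protein-coding genes. At 10 TPM or more in both libraries there were 37 members, and at 100 TPM or more 6. At the other end, 9 members had a mean under 0.1 TPM. Of all gene counts, the 83 members took 0.974% (replicate 1) and 0.777% (replicate 2).

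The order of levels was similar in both libraries at the top. Hspa8, the constitutive cytosolic Hsp70, was first with 1264 and 1508 TPM, followed by the constitutive cytosolic Hsp90, Hsp90ab1, with 354 and 284 TPM. Hspe1 came next in both in TPM, and 9 of the 10 highest members of replicate 1 were also among the 10 highest of replicate 2. The place of Hspe1 depends on the unit. In counts (20881 and 6868) it was below Hsp90aa1 (58701 and 29258), and likewise in the authors' older per-length values on mm9 (9.87 beside 36.4). The 10 highest by mean held 70.8% of all member TPM. From Hspe1 down to the member in place 30, all 27 pairs of neighbours in the order differed by less than the larger of their SDs over the libraries. For example, Cct5 (132 ± 38.9 TPM), Hsp90aa1 (129 ± 37.5 TPM) and Hspd1 (115 ± 59.1 TPM) were close by this measure. These SDs include the shift that most members share between the libraries, so they do not measure order within a library. In replicates 1 and 2, Cct5 was in places 6 and 5, Hsp90aa1 in 8 and 6, and Hspd1 in 7 and 8. With n = 2 such an order is poorly known.

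**Figure D1:**
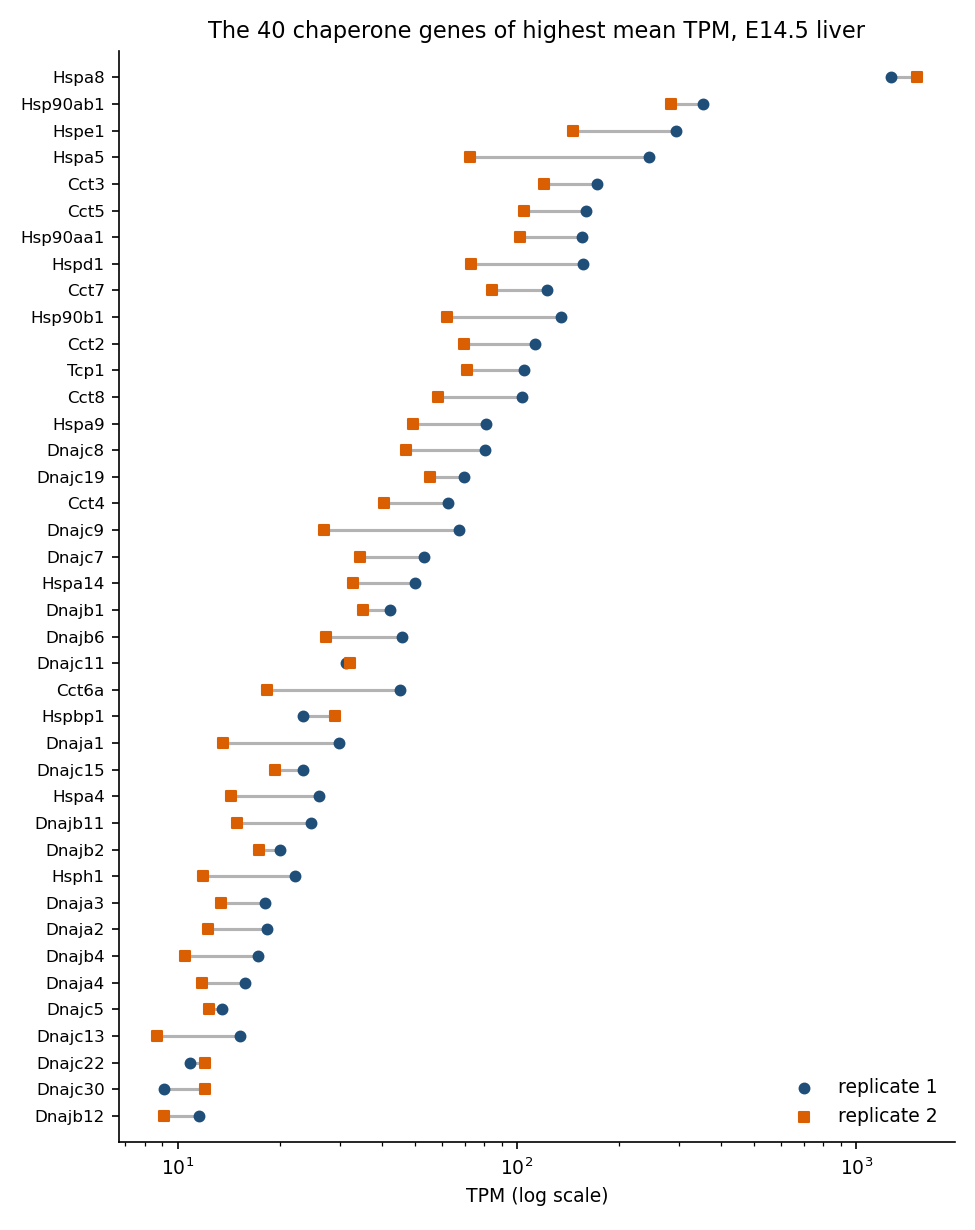
TPM of the 40 members of highest mean TPM in replicate 1 (circles) and replicate 2 (squares), on a log axis, with a grey line joining the libraries. Hspa8 stands apart at 1264 and 1508 TPM, and 35 of the 40 members have the lower TPM in replicate 2.

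By subfamily, the Hsp70 genes held 42.6% ± 7.79 of member TPM (SD, n = 2), most of it Hspa8. The Cct genes held 18.1% ± 2.52, the Hsp90 genes 13.7% ± 1.13, and class C J-proteins 9.87% ± 0.965. Hspd1 and Hspe1 together held 8.21% ± 2.71. Smaller shares fell to class B J-proteins (3.82%), class A J-proteins (1.65%), the Hsp110 genes (1.00%) and the Hspb-named partners (0.805%). The 8 small heat shock proteins together held 0.300% ± 0.0530. The order of the Cct and Hsp90 genes turned with the unit: Hsp90 held 20.5% of member counts and 20.7% of mm9 RPKM (the authors' older per-length values for both libraries), and Cct 18.7% and 19.3%. The share of Hspd1 and Hspe1 was 5.32% in counts and 4.10% in mm9 RPKM.

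**Figure D2:**
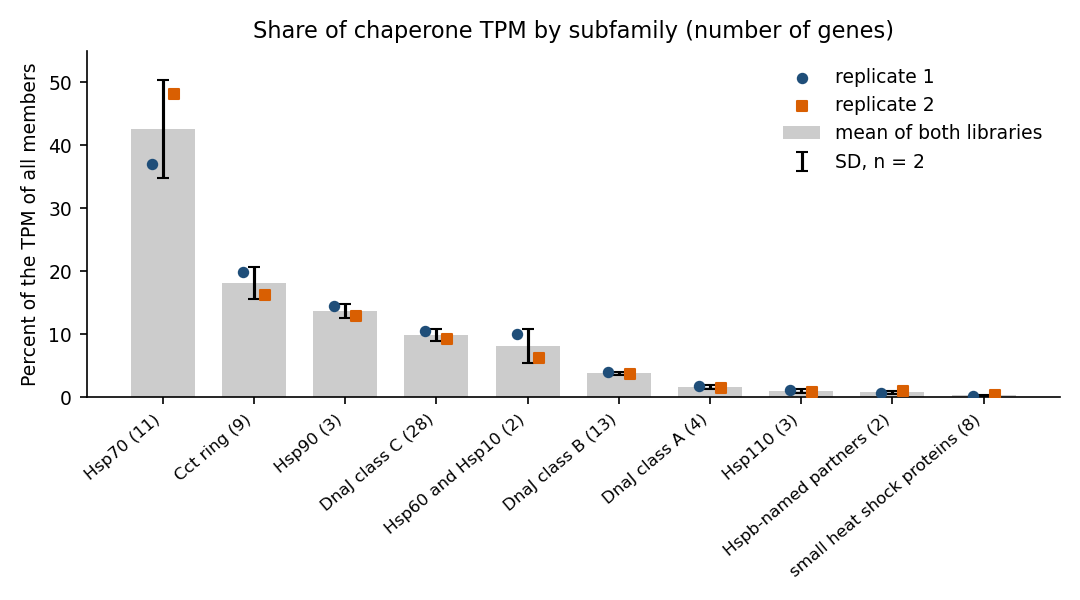
Percent of the TPM of all 83 members held by each subfamily, with the number of genes in brackets; grey bars are means, error bars the SD of both libraries, and points the libraries. The Hsp70 share is 37.1% in replicate 1 and 48.1% in replicate 2, while the small heat shock proteins are under 0.4% in both.

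The libraries were then compared gene by gene with an exact conditional binomial test on counts, scaled by the edgeR TMM method and adjusted by Benjamini-Hochberg over all genes with at least 10 counts. A gene was called when its adjusted p was below 0.05 and its count ratio was at least 2-fold. Of 17906 genes tested 8.02% were called, 3.59% as higher and 4.43% as lower in replicate 2. Of the 83 members 76 had enough counts, and 5 of them (6.58%) were called, a share near that background. Hspa1a, Hspa1b and Hspb7 were higher in replicate 2, and Dnajc9 and Cct6a were lower. Under an edgeR exact test that allows the spread of 13 housekeeping genes (a coefficient of variation of 17.3%), Hspa1a and Hspa1b were the only members called. They are 2.63% of the members tested, beside 3.23% of all genes called by that test, again a share near the background. Over all tested genes the common coefficient of variation between the libraries was larger, 25.0%, and no test was run with that wider spread.

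Below the 2-fold line the members leaned towards replicate 1. The log2 count ratio of replicate 2 to replicate 1 was below 0 for 55 of 76 members with a median of -0.28, beside 8988 of 17906 genes with a median of 0.00. Scaling by spike-in RNA moves every gene up by the same amount, which shifts the median of all genes to 0.65 and that of the members to 0.37 (67 of 76 above 0), so a direction given here is relative to the median gene. With spike-in sizes 9 members (11.8%) were called, all higher in replicate 2. Of all genes 21.2% were called with these sizes, 3524 as higher and 271 as lower. The TPM ratio depends further on the transcripts to which reads were assigned. A 2-fold TPM ratio would call 11 members (14.5%), 9 of them lower, beside 9.13% of all genes.

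**Figure D3:**
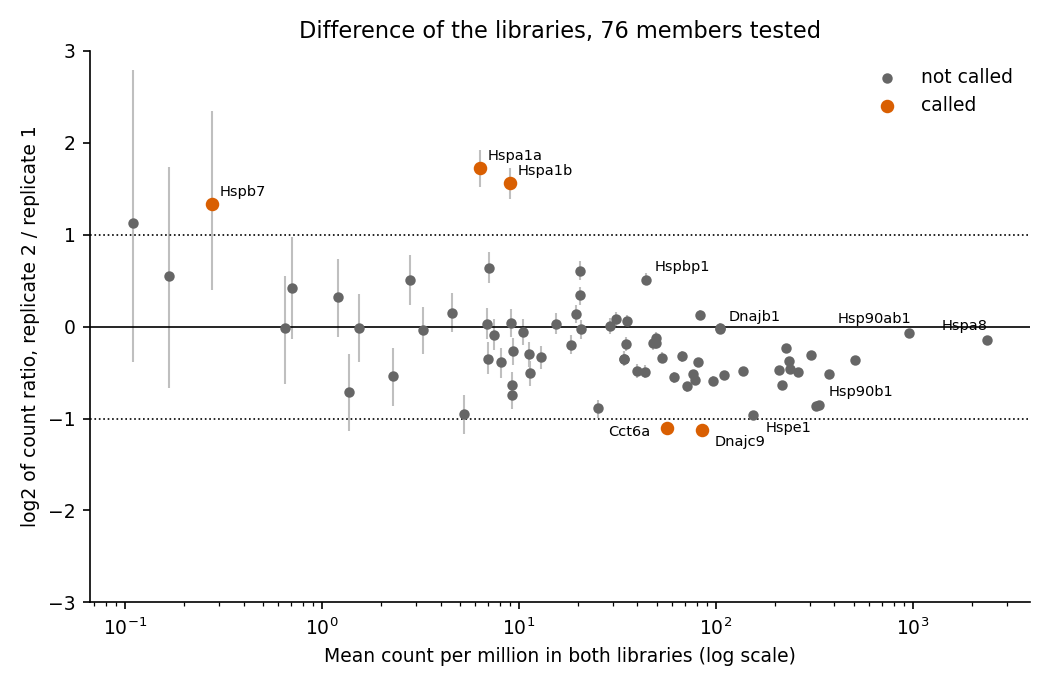
log2 count ratio of replicate 2 to replicate 1 for the 76 members tested, against mean CPM (counts scaled by library size) on a log axis; vertical lines are exact 95% intervals for counting error only, and dotted lines mark 2-fold. The 5 called members are orange, and Hspa1a and Hspa1b stand above all other members with a mean over 1 CPM.

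Among the Hsp70 genes, the stress-inducible Hspa1a and Hspa1b were the ones that differed most between the libraries. Hspa1a had 303 counts (0.87 TPM) in replicate 1 and 637 counts (2.42 TPM) in replicate 2. Its log2 count ratio was 1.72, and the lower end of the 95% counting interval was 1.52. Hspa1b had 467 counts (1.43 TPM) and 876 counts (3.54 TPM), a log2 ratio of 1.56. Replicate 2 was thus the higher library for both genes, although its total count is lower. With the housekeeping spread allowed, the edgeR exact test gave adjusted p-values of 5.80e-04 for Hspa1a and 0.00227 for Hspa1b.

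These genes are near-identical neighbours on chromosome 17 (Hspa1b at chr17:34956436-34959238, Hspa1a at chr17:34969190-34972156, both on the minus strand, GRCm38), each with 1 exon. Of the distinct 100-base windows of their M21 transcripts, 48.6% of those of Hspa1a and 49.9% of those of Hspa1b also occur in another gene, mainly the other member of the pair. Reads from these stretches were shared out by the authors' estimate, so the split between both genes is uncertain. The testis-linked Hspa1l lies head to head with Hspa1a at 547 bases between the starts and had 7.04 counts in replicate 1 and 0 in replicate 2.

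Their promoters are alike as well. The first 150 bases upstream of the RefSeq start are shown for both because they carry the heat shock pair of the most variable members; capitals mark this pair of units (GAANNTTC or TTCNNGAA). The stretches (GRCm38.p6, minus strand) are chr17:34972157-34972306 for Hspa1a and chr17:34959239-34959388 for Hspa1b, and 1 base differs.
Hspa1a: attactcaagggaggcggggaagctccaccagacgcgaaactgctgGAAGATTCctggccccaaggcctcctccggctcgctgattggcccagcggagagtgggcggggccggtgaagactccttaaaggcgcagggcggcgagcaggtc
Hspa1b: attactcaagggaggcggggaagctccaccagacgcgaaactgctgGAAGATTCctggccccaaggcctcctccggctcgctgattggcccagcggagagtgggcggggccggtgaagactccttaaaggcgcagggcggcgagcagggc
The pair begins 104 bases before the start in both. Over the full 250 upstream bases 247 are identical.

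Relative to the median gene, most other members of the heat shock program did not have the higher count in replicate 2. The 15 members known for the cytosolic heat shock program had 12 log2 ratios below 0 (2 with spike-in sizes) and a median of -0.36, and Hspa1a and Hspa1b were the only ones called. This list is not limited to inducible genes. It also holds the constitutive Hspa8 and Hsp90ab1, the ring subunits Cct2 and Tcp1, and the mitochondrial Hspd1 and Hspe1, all with log2 ratios below 0. Dnajb1, the classic inducible J-protein, had 42.07 and 35.09 TPM and a log2 count ratio of -0.03 (adjusted p = 0.248 in the binomial test). Hsph1, an inducible Hsp110, had 22.2 and 11.9 TPM and a log2 ratio of -0.58, and the small heat shock protein Hspb1 had 1.84 and 1.70 TPM and a log2 ratio of -0.01. Of the Hspb1 windows 44.0% also occur in a transcript of Hsp25-ps1, which makes its level less certain. Bag3, an inducible Hsp70 partner outside the rule, had 2.62 and 3.02 TPM and a log2 ratio of 0.45 (adjusted p = 1.59e-08 in the binomial test), under the 2-fold line. Hsf1 itself was at 16.5 and 17.3 TPM with a log2 ratio of 0.29, and Hsf2 at 3.12 and 2.22 TPM with -0.25. Immediate early genes, which respond fast to many stimuli, had 11 of 13 log2 ratios above 0 with a median of 0.40 and none called. The nerve cell markers given above were also higher in replicate 2, with a median log2 ratio of 2.39, and the part of either list in the Hspa1a and Hspa1b difference was not tested.

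Hspa8 exceeded Hspa1a and Hspa1b together by 549-fold in TPM in replicate 1 and by 253-fold in replicate 2. This log2 ratio, 8.54 ± 0.79 in TPM (SD, n = 2), was 7.50 in counts and 6.16 in mm9 RPKM, and 32.1% and 60.7% of the Hspa8 TPM were assigned to a 727-nucleotide processed transcript. The counts of Hspa8, 257749 and 147763, gave a log2 ratio of -0.15. Apart from Hspa5, described next, the other Hsp70 genes were well below Hspa8. Hspa9, the mitochondrial Hsp70 of protein import, had 81.1 and 49.2 TPM. Hspa14, a ribosome-associated Hsp70, had 49.9 and 32.9 TPM. The germ cell member Hspa2, the endothelial-linked Hspa12b, Hspa12a and the ER member Hspa13 had means between 0.160 and 2.58 TPM. None of these 6 was called.

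The ER Hsp70 Hspa5 (BiP) and the ER Hsp90 Hsp90b1 (Grp94) led the 14 ER members. Hspa5 had 245 TPM in replicate 1 and 72.7 TPM in replicate 2, but its counts of 45262 and 20174 gave a log2 ratio of only -0.52, against -1.75 for TPM. In TPM, Hspa8 exceeded Hspa5 by 5.15-fold in replicate 1 and 20.7-fold in replicate 2, a mean log2 ratio of 3.37 that was 2.69 in counts and 2.10 in mm9 RPKM. Hsp90b1 had 135 and 62.1 TPM and a log2 count ratio of -0.85. Their J-protein partners were lower: Dnajb11 had 24.6 and 14.9 TPM, Dnajc3 12.2 and 8.07 TPM, Dnajc10 8.59 and 6.10 TPM, and Dnajb9 5.28 and 4.36 TPM. None of the 14 was called, and 11 had a log2 count ratio below 0 (1 with spike-in sizes).

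Some ER members hold a known promoter element. The ER stress element, read here as CCAAT and CCACG with 9 bases between them on either strand, was found in the 300-base windows of Hspa5, Hsp90b1 and Dnajc3, which are 3 of the 68 members that have a window (4.41%), beside 0.137% of all 27025 genes. Of the 14 ER members 12 have a window, and these letters were in 3 of them. The elements are shown with 5 bases on each side and in capitals, because the genes differ in spacing from the start and in the bases between the boxes. They are at chr2:34772020-34772048 on the plus strand for Hspa5, chr10:86705633-86705661 on the minus strand and chr10:86705528-86705556 on the plus strand for Hsp90b1, and chr14:118937822-118937850 on the plus strand for Dnajc3.
Hspa5: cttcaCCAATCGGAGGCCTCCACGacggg
Hsp90b1, distal: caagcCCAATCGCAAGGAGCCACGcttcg
Hsp90b1, proximal: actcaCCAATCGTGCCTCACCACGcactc
Dnajc3: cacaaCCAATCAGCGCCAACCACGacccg
Their first bases, read towards the gene, are 65, 212, 107 and 105 bases before the RefSeq start. In M21 an exon of the full-length transcript Hspa5-201 overlaps the Hspa5 stretch, and no exon overlaps the others. Hspa5, Hsp90b1 and Dnajc3 had log2 count ratios of -0.52, -0.85 and -0.32. The wider ER folding set was led by Ppib at 208 ± 51.9 TPM, Calr at 198 ± 77.2 TPM, and the disulfide isomerases P4hb at 175 ± 46.0 TPM and Pdia6 at 86.8 ± 25.7 TPM, beside 245 and 72.7 TPM for Hspa5. Of its 16 genes 10 were below 0 (0 with spike-in sizes) and none was called. Among 11 tested regulators of ER stress none was called, and the highest were Atf4 (185 ± 64.2 TPM), Ppp1r15a (106 ± 38.5 TPM), Asns (99.06 and 69.35 TPM in replicates 1 and 2) and Xbp1 (31.9 ± 0.361 TPM).

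Of the cytosolic Hsp90 genes, the constitutive Hsp90ab1 exceeded the inducible Hsp90aa1 by 2.28-fold in TPM in replicate 1 and 2.79-fold in replicate 2 (log2 1.33 ± 0.20, SD, n = 2). Hsp90ab1 had the steadier count ratio, with a log2 of -0.07, and Hsp90aa1 had 155 and 102 TPM with a log2 of -0.36. Of the 3982 windows of Hsp90aa1, 1513 also occur in transcripts of other genes, mainly unnamed gene models, which makes its level less certain. The 23 Hsp90 co-chaperones were led by Fkbp8 (140 ± 2.60 TPM), Fkbp4 (115.71 and 85.78 TPM in replicates 1 and 2), Nudc (91.4 ± 38.8 TPM) and the ATPase activator Ahsa1 (83.0 ± 31.1 TPM). None of them was called, and 16 had a log2 ratio below 0 (5 with spike-in sizes).

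Hspd1 and Hspe1, the barrel and lid of the mitochondrial chaperonin, had like ratios between the libraries. Hspe1 had 294 TPM in replicate 1 and 146 TPM in replicate 2, a log2 count ratio of -0.96, and Hspd1 had 157 and 73.0 TPM, a log2 count ratio of -0.86. Both sat just inside the 2-fold line and were not called. Per length Hspe1 was above Hspd1, with a log2 TPM ratio of Hspd1 to Hspe1 of -0.95 ± 0.07. In counts the order was the opposite (1.08), and so it was in the authors' mm9 RPKM (1.44), which is also per length, so the order of these genes depends on the unit. The cause was not tested.

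The genes lie head to head on chromosome 1 and share the region between their starts. A run of overlapping heat shock units in this region is shown because both windows hold it. Its capitals mark the stretch made of overlapping pairs (GAANNTTC or TTCNNGAA, which read the same on both strands), and it lies at chr1:55088053-55088082 (GRCm38.p6), printed on the plus strand, that of Hspe1, with 6 bases on each side.
Hspe1 and Hspd1: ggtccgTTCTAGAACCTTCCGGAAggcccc
It begins 89 bases before the RefSeq start of Hspe1. In M21 an exon of a longer Hspd1 transcript, Hspd1-202, overlaps it. Heat shock elements of 3 units (such a pair with a further GAA or TTC in alternation after 2 more bases) were in the windows of Hspd1, Hspe1, Hsph1 and Dnajb6, or 4 of 68 members (5.88%), beside 0.662% of all 27025 genes. The shorter pair was in 19 of 68 members (27.9%) and in 17.0% of all genes, and in 10 of the 12 members of the heat shock program that have a window. Windows hold 250 bases before and 50 after the start, both strands were read, pairs inside triples were counted again, and 15 members, among them Hspa8, Hsp90ab1 and Hsp90aa1, had no window in the table used. The 4 members with 3 units had log2 count ratios below 0, from -0.96 for Hspe1 to -0.52 for Dnajb6.

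Head-to-head arrangement was more frequent among the members than among all protein-coding genes, which were not matched to the members in level. A gene on the other strand starts within 1000 bases upstream, or overlaps the start by less than 200 bases, for 17 of 83 members (20.5%) and for 7.91% of protein-coding genes in M21. These genes form 15 pairs, and the mean levels lay within 2-fold of each other in 5 of them, such as Dnajb4 (13.9 TPM) with Fubp1 (19.3 TPM) and Dnajb11 (19.8 TPM) with Tbccd1 (15.1 TPM). Other neighbours were further apart: Dnajb1 (38.6 TPM) lies 222 bases from Tecr (142 TPM), Dnajc2 (10.2 TPM) 32 bases from the proteasome gene Psmc2 (43.9 TPM), and Cct3 (146 TPM) 117 bases from Tsacc (2.35 TPM). The start of Cct6b, a testis-linked paralog of Cct6a at 0.0800 TPM, is 24 bases from that of Zfp830, which was at 8.12 TPM.

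The cytosolic chaperonin was expressed as a graded set. The 8 subunits of the ring summed to 883 TPM in replicate 1 and 567 TPM in replicate 2, with medians of 109 and 70.5 TPM. Cct3 was highest with 172 and 120 TPM, then Cct5 with 160 and 105 TPM, Cct7 with 123 and 84.1 TPM, Cct2 with 113 and 69.8 TPM, and Tcp1 (subunit alpha) with 105 and 71.2 TPM. Cct8 had 104 and 58.3 TPM and Cct4 62.7 and 40.6 TPM. Cct6a was lowest with 45.2 and 18.3 TPM, so that Cct3 exceeded it by 3.80-fold and 6.56-fold in TPM. In mm9 RPKM Cct6a was lowest as well (6.24), but not in junction reads. Its annotated mm9 junctions had a median of 2353 reads, beside 1937 for those of Cct4, which makes its level less certain. The cause was not tested.

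All 8 ring subunits had a log2 count ratio below 0 with a median of -0.48 (1 of 8 with spike-in sizes), between -0.23 for Cct3 and -1.10 for Cct6a. Cct6a was the called one, with 7908 and 2347 counts and a 95% counting interval of -1.17 to -1.04. It lost the call with spike-in sizes (log2 -0.45) and in the edgeR exact test (adjusted p = 0.0631). Prefoldin, which hands actin and tubulin to the ring, followed the same direction: 10 of 10 tested prefoldin subunits and partners were below 0 with a median of -0.66 (5 with spike-in sizes), and none was called. Pfdn5 had 78.2 and 42.2 TPM, Pfdn6 59.2 and 34.4 TPM, Pfdn1 32.1 and 17.1 TPM, and Pfdn4 22.2 and 24.7 TPM. Pfdn4 had the higher TPM in replicate 2 but a log2 count ratio of -0.94, so the units gave opposite signs.

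**Figure D4:**
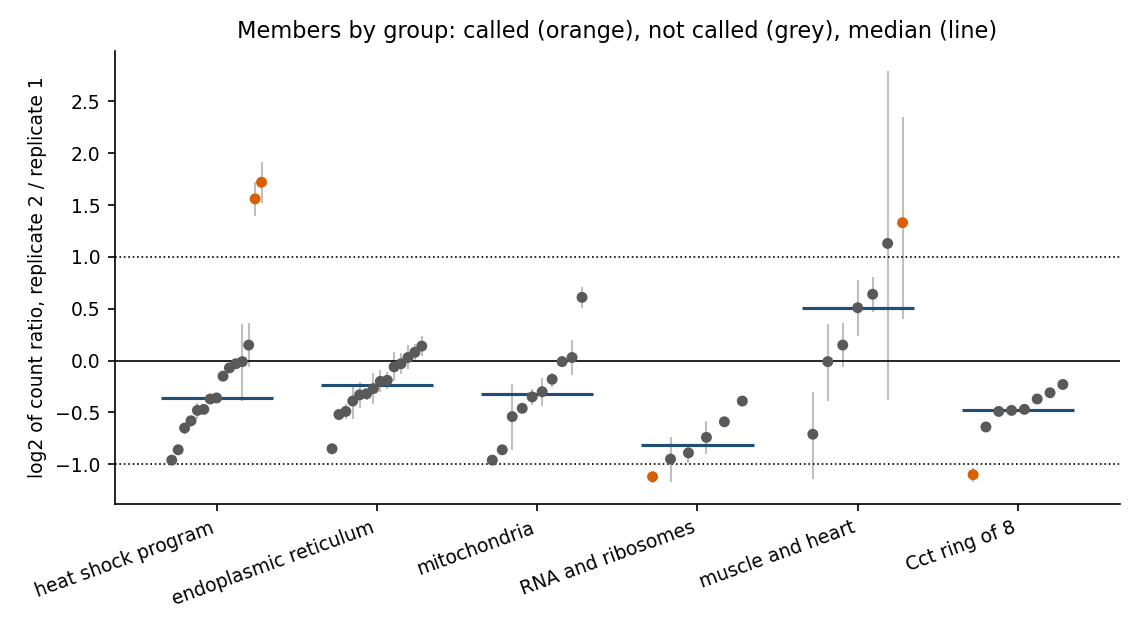
log2 count ratio of replicate 2 to replicate 1 for members in 6 groups, each point a gene with its 95% counting interval, orange where called, with a blue line at the group median and dotted lines at 2-fold. The list of RNA and ribosome members, which also holds the histone co-chaperone Dnajc9, has the lowest median, -0.82. The muscle and heart list has the highest, 0.51, and also holds Hspb11, a ciliary transport protein, and Hspb2 and Hspb7, which have few counts.

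J-proteins, which choose the clients of Hsp70, were the largest family. The class A proteins Dnaja1 and Dnaja2, general partners of Hspa8, had 29.8 and 13.6 TPM and 18.4 and 12.2 TPM. The mitochondrial Dnaja3 had 18.01 and 13.4 TPM and Dnaja4 15.8 and 11.8 TPM. In class B, Dnajb1 was highest (38.6 ± 4.94 TPM), followed by the aggregation suppressor Dnajb6 (36.7 ± 13.1 TPM), the ER member Dnajb11 (19.8 ± 6.87 TPM) and Dnajb2 (18.7 ± 1.91 TPM). Dnajb4 (13.9 TPM), Dnajb12 (10.3 TPM), Dnajb3, Dnajb9 and Dnajb14 (1.27 TPM) followed, and Dnajb5 and Dnajb13 had means of 1.05 and 0.530 TPM. None of the 15 class A and B genes tested was called. The level of Dnajb6 is less certain, because 14.6% of its windows also occur in transcripts of other genes. Its annotated mm9 junctions had a median of 20.5 reads, beside 1355.5 for Dnajb1, and the cause was not tested.

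Class C was the most diverse, with 24 of 28 genes at 1 TPM or more in both libraries. The spliceosome-associated Dnajc8 had 80.6 and 47.2 TPM. The mitochondrial import proteins Dnajc19 and Dnajc15 had 69.6 and 55.3 TPM and 23.3 and 19.3 TPM, and Dnajc11, of the inner membrane organizing system, had 31.4 and 32.2 TPM. Dnajc7, which links Hsp70 to Hsp90, had 53.3 and 34.5 TPM. The endosomal Dnajc13 and the cysteine string protein Dnajc5 had means of 11.9 and 12.9 TPM. The class median was 9.11 TPM in replicate 1 and 6.09 TPM in replicate 2. Below 1 TPM on average were Dnajc28 (0.645 TPM), Dnajc6 (0.190 TPM) and the pair with no counts.

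Dnajc9, a co-chaperone of histones H3 and H4, was the class C gene called. It had 67.4 TPM in replicate 1 and 26.9 TPM in replicate 2. Its log2 count ratio was -1.12, and the 95% counting interval ran from -1.18 to -1.07. It lost the call with spike-in sizes (log2 -0.47) and in the edgeR exact test (adjusted p = 0.0566). It was also placed in a list of 6 members with nuclear, RNA and ribosome roles, together with Dnajc2, Dnajc8, Dnajc17, Dnajc21 and Hspa14. All 6 were below 0 with a median of -0.82 (4 of 6 with spike-in sizes), and the 5 without Dnajc9 had a median of -0.74. Dnajc2, the ribosome-bound partner of Hspa14, had a log2 ratio of -0.89 and Hspa14 one of -0.39.

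Among mitochondrial members, 8 of 10 had a log2 ratio below 0 (2 with spike-in sizes), with a median of -0.33, and none was called. The largest ratio above 0 was 0.61 for Dnajc30, at 9.08 and 12.01 TPM. Folding and protease genes of the same compartment were at comparable levels, with Htra2 at 71.0 ± 1.90 TPM, the mitochondrial Hsp90 Trap1 at 59.1 ± 5.54 TPM, Clpp at 50.7 ± 4.08 TPM and Lonp1 at 40.6 ± 4.32 TPM. None of these 12 genes was called.

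The exchange factors sat well below Hspa8, but not below every Hsp70 gene. Of the Hsp110 genes, Hspa4 had 26.1 and 14.3 TPM, Hsph1 had 22.2 and 11.9 TPM, and Hspa4l had 4.13 and 2.41 TPM. All 3 had a log2 ratio below 0 (0 with spike-in sizes) and none was called. Hspbp1, another exchange factor of Hspa8, had 23.3 and 29.1 TPM and a log2 ratio of 0.51, and was not called. The other partner, Hspbap1, had 5.38 and 4.49 TPM. Of 16 exchange factors and partners Bag1 was the called one, with 57.5 and 21.3 TPM and a log2 ratio of -1.29. The upward shift of all genes with spike-in sizes (0.65) would bring Bag1 inside the 2-fold line. Its edgeR exact test is not given here. The ubiquitin ligase Stub1 (50.4 ± 7.98 TPM), Bag6 (45.3 ± 2.85 TPM) and Bag2 (28.1 ± 1.22 TPM) were at similar levels without a call.

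Small heat shock proteins, which hold unfolded proteins without ATP and are best known from muscle and eye lens, were scarce. Hspb6 was highest with 4.03 and 5.46 TPM, then Hspb11, a ciliary transport protein, with 3.46 and 2.13 TPM, Hspb8 with 2.19 and 2.10 TPM, and Hspb1. Hspb2, Hspb3, Hspb7 and Hspb9 each had a mean of 0.140 TPM or less. Hspb7, of heart and muscle, was called on few reads: it had 16 counts (0.05 TPM) in replicate 1 and 26 counts (0.11 TPM) in replicate 2. The log2 ratio was 1.33, and its 95% counting interval ran from 0.40 to 2.35. The edgeR exact test did not call it (adjusted p = 0.311). Heart markers summed to 4.72 and 6.01 TPM, with 1 of 7 tested (Myh7) called higher in replicate 2, and among 9 tested skeletal muscle markers Myh8 was called lower; their part in the Hspb7 value was not tested. Cryab, a lens and muscle relative outside the rule, had 1.67 and 1.20 TPM.

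Dnajb7, Dnajb8, Dnajc5b and Dnajc5g had 0 counts in both libraries, which allows up to 0.0292 CPM (3 counts of the library total) in replicate 1 and 0.0457 CPM in replicate 2, for counting error only. All 4 are best known from testis or other specialised cells. Of the 11 members known from germ cells, 2 were at 1 TPM or more in both libraries: Dnajb3 (6.52 ± 1.52 TPM) and Hspa4l (3.27 ± 1.22 TPM). Germ cell markers themselves summed to 0.390 and 0.250 TPM. Members known from nerve cells had 4 of 5 log2 ratios above 0 and none called. Dnajc6, the neuronal auxilin, had 62.0 and 53.0 counts and Hspa12a 111 and 88.0 counts; the part of the nerve cell markers, which were higher in replicate 2, was not tested.

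Levels in TPM rested on how reads were assigned to transcripts, and for some of the highest members this differed between the libraries. Of 69 members with a mean of 1 TPM or more, 66 had the same leading transcript in both libraries, and it held at least 90% of the gene in both for 38. The leading transcript was protein-coding in M21 for 63. Hspa5 was an exception. Its transcript Hspa5-204, a 477-nucleotide model marked for nonsense-mediated decay, was assigned 46.8% of the gene in replicate 1 and 0.23% in replicate 2, while the full-length Hspa5-201 went from 10.2% to 58.2%. In counts Hspa5-204 held 3824 of the 45262 in replicate 1, and without this model the log2 TPM ratio of the gene would be -0.85 in place of -1.75.

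Hspa8 showed the same kind of shift in the opposite direction. Its protein-coding transcript Hspa8-201 held 64.3% and 28.7%, and the 727-nucleotide, 4-exon processed transcript Hspa8-209 held 32.1% and 60.7%. The TPM of Hspa8 was higher in replicate 2 (log2 0.25) while its count ratio was below 0 (-0.15). In Dnajc11 the retained-intron model Dnajc11-211 went from 0.91% to 26.5%. In Cct3 a 472-nucleotide retained-intron model, Cct3-203, held 40.4% and 35.4%, which adds to its first place in the ring: Cct3-201 alone had 97.8 and 75.0 TPM, below the 160 and 105 TPM of Cct5. Fragments averaged 214.2 nucleotides in replicate 1 and 302.7 in replicate 2, from the difference of length and effective length, and short models lose more of their effective length to long fragments. The part of fragment length in these shifts was not tested.

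**Figure D5:**
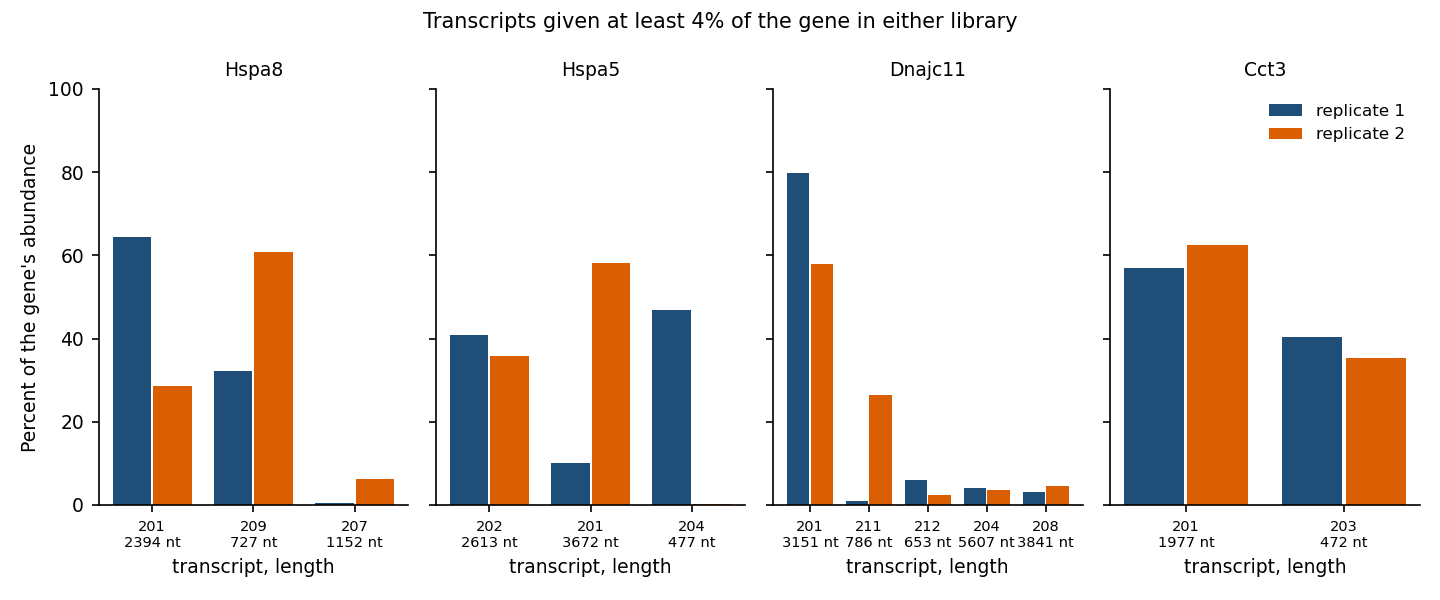
Percent of gene abundance assigned to each transcript in replicate 1 (blue) and replicate 2 (orange) for Hspa8, Hspa5, Dnajc11 and Cct3, with transcript numbers and lengths below; transcripts with at least 4% in either library are drawn. The 477-nucleotide transcript of Hspa5 has 46.8% in replicate 1 and 0.23% in replicate 2.

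The authors' mm9 tables, which pool both libraries, gave a view that does not depend on transcript assignment. Annotated splice junctions numbered 742 over 71 members with 916552 reads, and 668 of them passed an irreproducible discovery rate (IDR, small where the replicates share a feature) under 0.1. At that limit, junctions not in the annotation took 0.684% of the members' junction reads, beside 17.7% over all junctions of the table. These sets are unlike. A member junction had to lie within the bounds and on the strand of its annotated gene, and the 17.7% was taken without that limit. The most used unannotated junction of the members was in Cct8 at chr16:87490910-87491545 (mm9, minus strand), with 3511 reads against a median of 3296 for the annotated junctions of the gene. Its length of 636 bases equals that of an intron of Cct8 in the later M21 annotation. The next was in Hspbp1 at chr7:4636169-4636495 with 538 reads, against a median of 1074, also with an intron of its length (327 bases) in M21.

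Junction reads were even along Hspa5, from 2871 to 9599 per annotated junction, and uneven along Hspa8. In Hspa8, 3 junctions in the 5′ part had 41981, 34413 and 19668 reads, and each of the others 2365 or fewer. Of the Hspa8 windows 28.2% also occur in transcripts of other genes, most often those of Gm15459, Gm8355 and Gm6210, and the part of shared sequence in this pattern was not tested. Contigs at the same limit covered the sense strand of 74 of 83 members, with a highest signal of 190.0 for Hsp90ab1 and 167.0 for Hspa8 by the authors' values. Contigs on the other strand touched 41 members, and they include the transcripts of neighbours such as the Hspd1 and Hspe1 pair.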

How the data were processed

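Polyadenylated RNA of E14.5 liver was sequenced in 2 libraries. For each, the authors deposited gene and transcript tables which, per the file headers, hold an expected count, TPM and FPKM, and the percent of a gene's abundance on each transcript. A deposited note names mm10 and GENCODE M4; the aligner is not given in the sources used here. On mm9 the authors deposited gene models with RPKM, contigs with a coverage signal, and junctions with a read count and a score. Per the file headers these carry an IDR, which like a p-value is small where replicates share a feature. RPKM columns are not tied to a library, so their mean was used.

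The members and lists were chosen with earlier results of these data known. GENCODE M21 (GRCm38) gave the gene names by identifier, versions ignored, and 42462 of 43346 rows got a symbol. Expected counts were rounded, and libraries were scaled by TMM (edgeR 4.0.16) and tested against each other with an exact conditional binomial test (two-sided, SciPy) with Benjamini-Hochberg adjustment over all genes with at least 10 counts. Fold changes add 0.5 to each count. Left out were spike-ins, at 2.84% and 1.82% of counts, phiX, at 0.0764% and 0.0857%, and 26248 numeric rows that held 2 counts in replicate 1 and 0 in replicate 2. Depth gives a limit of 0.0292 and 0.0457 CPM for a count of 0. Intervals cover counting error only. The test was tested on simulated data with counting error only, so that check does not cover the spread between libraries. Alternatives were DESeq2 1.42.0 size factors, spike-in sizes, other count minimums, an edgeR exact test, and other units. Promoter windows are from RefSeq (GRCm38.p6), and 68 of 83 members matched by symbol. Protein sequences were not analysed here.

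Named genes are the 30 members of highest mean TPM, called members, members at 0, those in ratios, and up to 4 leading genes of each list. Other members are given by subfamily or were named after their values were seen.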

Additional observations from a re-analysis of the deposited data

How the results depend on the processing

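The 5 called members became 9 with spike-in sizes, 2 with the edgeR exact test and 11 by TPM ratio. The share of all genes called went from 8.02% to 21.2%, 3.23% and 9.13% in the same order. Members with a higher count in replicate 2 numbered 21, and 67 with spike-in sizes. Without globin and mitochondrial genes the median member was at 20.7 TPM in place of 8.82. The Hsp90 share was 20.5% in expected counts and 20.7% in mm9 RPKM (13.7% in TPM), and the share of Hspd1 and Hspe1 5.32% and 4.10% (8.21%). The log2 ratio of Hsp90ab1 to Hsp90aa1 was 0.92 in counts and 1.69 in mm9 RPKM (1.33), and that of Hspa8 to Hspa1a plus Hspa1b 7.50 and 6.16 (8.54). Hspd1 to Hspe1 turned from -0.95 to 1.08 in counts and 1.44 in mm9 RPKM. The cause of these changes with the unit was not tested. A heat shock pair in place of 3 units was in 19 members in place of 4. The number of members at 1 TPM stayed within 1.5 times its value of 66 under every unit, table and threshold run. No paired analysis was possible because there is 1 group. Leaving out a library removes the comparison of libraries. With 2 libraries at these depths, spread is poorly known.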

Other observations

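Shares of other promoter letters differed between the members and all genes with a window to differing degrees, and no test was run. The genes with a window were not matched to the members in class or level, while the members are protein-coding and mostly at 1 TPM or more. The same holds for the promoter shares given above. The GC box GGGCGG was in the windows of 51 of 68 members (75.0%) and of 38.2% of all 27025 genes. The TATA box TATAAA was in 4 members (5.88%: Dnajc19, Dnajc24, Hspb3 and Hspb6) and in 15.7% of all genes. CCAAT was in 30 members (44.1%) and in 41.1% of all genes. All 12 members of the heat shock program with a window held a GC box, and none held TATAAA. The 10 chaperone pseudogenes that the rule leaves out had 310 counts in replicate 1 and 47.2 in replicate 2.

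Among neighbours of the members, Tecr, a lipid synthesis enzyme next to Dnajb1, had a log2 count ratio of 0.40 against -0.03 for Dnajb1, and Psmc2 had -0.60 against -0.89 for Dnajc2. Fubp1 had -0.21 against -0.48 for its neighbour Dnajb4.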
